A study of Mus musculus with 9 samples.

Results

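The 10 genes described here encode the enzymes that build fatty acids from acetyl units in the cytosol and the endoplasmic reticulum (Acly, Acss2, Me1, Acaca, Acacb, Fasn, Elovl6, Elovl5, Scd2 and Scd1). They were picked by name as the enzymes of the pathway, by a rule that uses no measured value, though earlier results of these data were known. All 10 were found among the 21899 genes of the deposited table. The libraries came from untreated Neuro-2a (N2a) cells, a mouse line derived from a neuroblastoma and labelled as neuroblast from brain, with 3 libraries per group. The shlucif cells carried a hairpin against luciferase (genotype luciferase knockdown), and the shArf1-1 and shArf1-2 cells carried 1 of 2 hairpins against Arf1 (genotype Arf1 knockdown), so that every group carried a hairpin plasmid with a puromycin marker. Arf1 encodes a small GTPase of the Golgi that recruits vesicle coats. The cells are a tumour line, not neurons, and nothing in the labels says that the 3 libraries of a group came from separate cultures, so p-values measure only the spread between these samples, which may be technical.

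De novo lipogenesis runs in a fixed order of steps. Citrate exported from mitochondria is split by ATP citrate lyase (Acly) into acetyl-CoA, which acetyl-CoA synthetase (Acss2) can also make from acetate. Malic enzyme (Me1) supplies NADPH, acetyl-CoA carboxylase (Acaca in the cytosol, Acacb at the mitochondrial surface) makes malonyl-CoA, and fatty acid synthase (Fasn) uses both to assemble palmitate. Elovl6 then lengthens saturated and monounsaturated chains, Elovl5 mainly lengthens polyunsaturated chains, and the stearoyl-CoA desaturases (Scd1 and Scd2) insert the first double bond. In many tissues these genes are transcriptional targets of SREBP1, the product of Srebf1, and in brain Scd2 is the main desaturase of this family.

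The hairpin targets are shown because they define the groups. Each 21-base sequence, all in lower case, was found in 2 of 2 annotated Arf1 transcripts and in 0 of 55 annotated transcripts of the 10 enzyme genes.
shArf1-1 target: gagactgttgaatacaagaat
shArf1-2 target: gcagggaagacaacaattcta

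The sequences before the start sites of Fasn, Acly and Elovl5 are shown because these genes stand for the 3 patterns below, a large rise, a small rise and a fall. They are the 250 bases upstream of the RefSeq start on GRCm38.p6, written in the direction of transcription, and capitals mark the CCAAT box (CCAAT), the GC box (GGGCGG) and the E-box (CACGTG) on either strand. The Fasn window lies on the minus strand at chr11:120824548-120824797, the Acly window on the minus strand at chr11:100528001-100528250 and the Elovl5 window on the plus strand at chr9:77917115-77917364.
Fasn: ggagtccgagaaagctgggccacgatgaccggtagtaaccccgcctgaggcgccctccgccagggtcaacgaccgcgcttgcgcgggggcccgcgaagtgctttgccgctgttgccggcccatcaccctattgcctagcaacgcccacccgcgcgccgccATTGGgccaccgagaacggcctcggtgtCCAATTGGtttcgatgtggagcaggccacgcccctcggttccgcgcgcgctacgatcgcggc
Acly: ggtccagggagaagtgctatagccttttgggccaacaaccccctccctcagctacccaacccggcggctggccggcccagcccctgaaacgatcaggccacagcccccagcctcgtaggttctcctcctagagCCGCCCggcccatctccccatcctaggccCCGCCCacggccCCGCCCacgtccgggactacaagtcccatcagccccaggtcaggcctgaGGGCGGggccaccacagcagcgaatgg
Elovl5: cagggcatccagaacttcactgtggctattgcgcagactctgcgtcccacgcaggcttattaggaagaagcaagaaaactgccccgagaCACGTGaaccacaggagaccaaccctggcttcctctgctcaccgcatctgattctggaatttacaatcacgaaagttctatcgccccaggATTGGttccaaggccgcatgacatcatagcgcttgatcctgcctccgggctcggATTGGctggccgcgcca

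The Fasn window held 3 CCAAT boxes, 90 to 86, 62 to 58 and 59 to 55 bases before the start, and the last pair overlapped on opposite strands. The Acly window held 4 GC boxes and no CCAAT box. In the Elovl5 window there were 2 CCAAT boxes and an E-box, 161 to 156 bases before the start. RefSeq windows were found for 8 of the 10 genes, 9 windows in all since Me1 has 2. A CCAAT box was present in 5 of the 9 windows (those of Acacb, Acss2, Elovl5, Fasn and 1 of Me1), against 33.8% of 32851 windows of all genes, and a GC box in 3 of the 9 (Acly, Acss2 and 1 of Me1), against 32.7%. An E-box was present in 1 of the 9 windows, against 6.02%. A sterol response element spelled TCACNCCAC was present in 0 of the 9, against 1.05% of all windows, and its shorter form TCACNCCA, which every longer match also contains, in 0 of the 9, against 3.67%. The carbohydrate response element, searched as 2 exact E-boxes with 5 bases between them, was in none of the 32851 windows. A direct repeat of exact AGGTCA copies with 4 bases between them, the site type of liver X receptors, was in 0 of the 9 and in 0.0152% of all. Only these exact spellings were searched, so sites that depart from them were not counted. Where the share of all windows is this low, 0 of 9 says little. These matches describe letters within 250 bases and not binding. The Acaca window starts at base 84195188 of chromosome 11, inside the annotated gene (84129672 to 84401651, plus strand), and the Acacb window at base 114165268 of chromosome 5, also inside its gene (114146535 to 114250761, plus strand). Neither covers its gene's outermost start, and the Me1 window with the CCAAT box (chromosome 9, 86687278 to 86687527) likewise lies inside Me1 (86581371 to 86695953, minus strand).

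Library totals ran from 11182479 to 15594615 counts, and 12448 genes had enough counts to be tested. The knockdown itself was seen in every library. Arf1 stood between 316 and 328 FPKM (fragments per kilobase of gene, scaled to the library total) with shlucif, between 127 and 130.3 with shArf1-1 and between 157 and 171 with shArf1-2. Of the neuroblastoma and sympathetic neuron markers, 11 of 14 had at least 20 counts in every library, led by Tubb3, Chga and Hand2. The neurofilament gene Nefm had 0 counts throughout and Nefl at most 2, and Th, named after its values were seen, had 12 to 19. The summed level of the 14 was 624 to 659 FPKM with shlucif and 1022 to 1167 in Arf1-deficient libraries. Macrophage and microglia markers moved with the hairpin as well. Their 18 genes, led by Lyz2, Cd68 and Ctss, summed to 201 to 241 FPKM with shlucif and to 0.778 to 1.39 FPKM in Arf1-deficient libraries. In the latter, 8 of them (Spi1, Aif1, Itgam, C1qa, C1qb, C1qc, Ctss and Cx3cr1) were at 0 in every library. Aif1, C1qa and Cx3cr1 had at most 5 counts with shlucif too. Of the 15 with enough counts to test, 14 were lower and 1 higher, where 32.9% and 31.6% of all tested genes were. The exception was Mrc1, named after its values were seen, with 4 to 9 counts with shlucif and 6 to 21 in Arf1-deficient libraries. The 7 fibroblast markers, led by Pdgfrb, Col1a1 and Pdgfra, summed to 6.96 to 7.19 FPKM with shlucif and to 2.20 to 3.62 FPKM in Arf1-deficient libraries. Of the 4 with enough counts to test, Pdgfrb and Col1a1 fell (both -1.71 on the log2 scale), and Pdgfra (-0.25) and Dcn (0.45) did not pass the threshold. The 6 adipocyte markers, led by Fabp4, Retn and Plin1, summed to 3.86 to 4.33 and to 0.132 to 0.281 FPKM, a difference carried by Fabp4, which had 225 to 258 counts with shlucif and 0 in every Arf1-deficient library. Retn had at most 2 counts, and Plin1 had 0 to 5 counts with shlucif and 5 to 13 in Arf1-deficient libraries. The part of these differences in the enzyme values below was not tested, and in bulk RNA fewer cells of a type and less RNA per cell cannot be told apart.

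Arf1 deficiency went with a rise of the synthase, of the cytosolic carboxylase, of Elovl6 and of both desaturases (Scd1 from few counts), and with a smaller rise of Acly. Acss2, Me1, Acacb and Elovl5 fell, Acacb with overlapping groups. Of 22 alternative analyses described below, the Acacb call was lost in 9 and the Acss2 call in 2. The steps of acetyl-CoA supply, carboxylation and elongation, each served by a pair of genes, held 1 gene that rose and 1 that fell. For carboxylation this rests on the less certain fall of Acacb. Of the 10 genes, 6 were higher and 4 lower in the 6 Arf1-deficient libraries than in the 3 shlucif libraries at an adjusted p under 0.05 (quasi-likelihood test of edgeR, adjusted over all tested genes by the Benjamini-Hochberg method). In the same test 31.6% of all tested genes were higher and 32.9% lower. The median log2 fold change was 0.40 over the 10 enzymes and 0.00 over all tested genes.

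**Figure D1:**
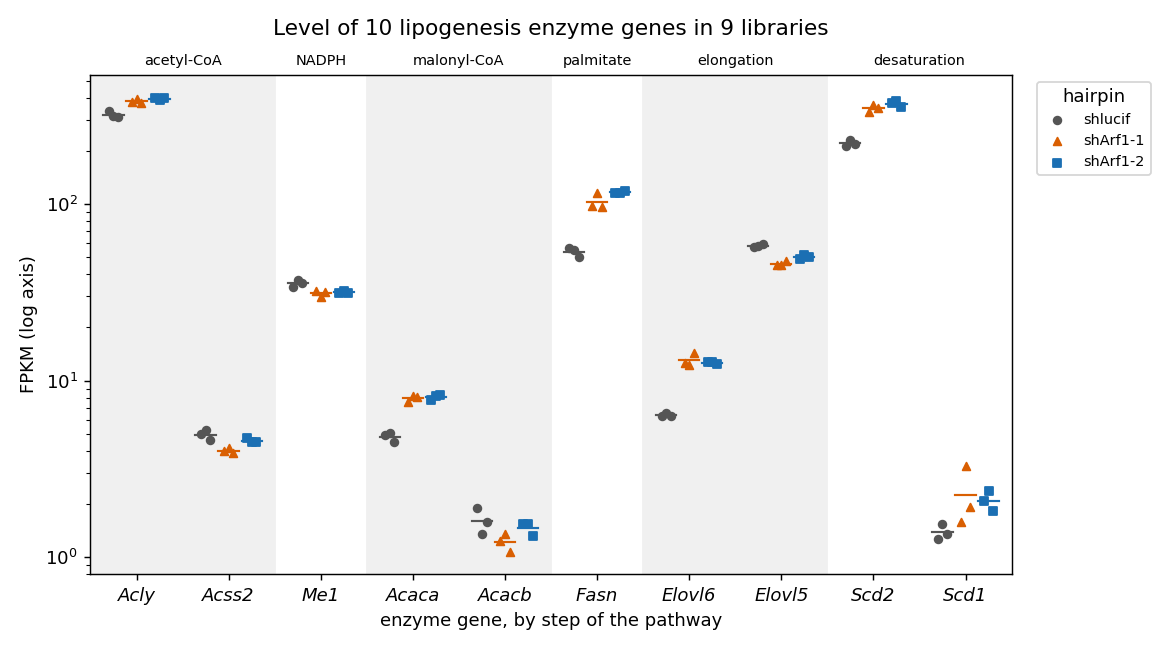
Level of each enzyme gene in FPKM (log axis) in the 9 libraries, in the order of the pathway's steps. Points are libraries, circles for shlucif, triangles for shArf1-1 and squares for shArf1-2, and bars are the mean of 3 libraries. Acly, Acaca, Fasn, Elovl6 and Scd2 lie higher in all 6 Arf1-deficient libraries, Fasn between 96.6 and 119 against 49.9 to 56.4 FPKM.

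At the entry of the pathway, Acly (chromosome 11, 100476353 to 100528000, minus strand of GRCm38) was the most abundant of the 10 by FPKM. Its levels were 335, 318 and 310.1 FPKM with shlucif, 378, 397 and 373 FPKM with shArf1-1 and 403, 388 and 398 FPKM with shArf1-2. Every Arf1-deficient library was above every shlucif library. The rise was small, 0.22 ± 0.05 on the log2 scale (log2 fold change ± standard error, as below; adjusted p = 0.000388 in the edgeR test). Acss2, the acetate route to the same product, went the other way. It stood at 4.96, 5.26 and 4.57 FPKM with shlucif, 3.98, 4.15 and 3.89 FPKM with shArf1-1 and 4.74, 4.47 and 4.49 FPKM with shArf1-2. The shArf1-1 libraries lay below all shlucif libraries, while the FPKM range with shArf1-2 overlapped that of shlucif. It changed by -0.26 ± 0.08 on the log2 scale (adjusted p = 0.0054 in the edgeR test). On the FPKM scale with limma this call was lost (adjusted p = 0.0541 for log2(FPKM + 1)). Since Acly held most of the level of this step, the sum of both genes rose from 326 ± 13.1 FPKM to 387 ± 12.7 with shArf1-1 and 401 ± 7.63 with shArf1-2 (SD, n = 3 each).

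Me1, which makes NADPH from malate in the cytosol, was at 34.02, 37.0 and 35.8 FPKM with shlucif. With shArf1-1 it was at 32.2, 29.8 and 32.0 FPKM, and with shArf1-2 at 31.3, 32.2 and 31.5 FPKM. All 6 Arf1-deficient libraries were lower than all 3 shlucif libraries. The log2 fold change was -0.24 ± 0.05 (adjusted p = 0.000474 in the edgeR test), and it was -0.24 with each hairpin.

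The 2 carboxylases differed in both level and direction. Acaca, whose malonyl-CoA feeds synthesis, had 4.89, 5.04 and 4.47 FPKM with shlucif, 7.51, 8.17 and 8.06 FPKM with shArf1-1 and 7.79, 8.16 and 8.29 FPKM with shArf1-2. The groups were far apart and the 2 hairpins alike in range. Acacb (chromosome 5, 114146535 to 114250761, plus strand), whose malonyl-CoA limits the entry of fatty acids into mitochondria, had 1.89, 1.34 and 1.58 FPKM with shlucif, 1.24, 1.35 and 1.07 FPKM with shArf1-1 and 1.53, 1.53 and 1.31 FPKM with shArf1-2. Its Arf1-deficient and shlucif libraries overlapped. Acaca had a log2 fold change of 0.67 (95% interval 0.55 to 0.79) and Acacb one of -0.33 (95% interval -0.60 to -0.06, adjusted p = 0.0334 from the edgeR test). The Acacb call rested on few counts, 145 to 251 per library, and on single libraries. Without shlucif replicate 1 the change was -0.19 (adjusted p = 0.273 from the edgeR test), and it also missed the threshold without shlucif replicate 3 (-0.34), shArf1-1 replicate 1 (-0.31) or shArf1-1 replicate 3 (-0.27).

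Fasn (chromosome 11, 120805846 to 120824547, minus strand), which carries out every reaction of palmitate assembly on 1 polypeptide, rose by about as much as Elovl6, and these were the largest rises of the 10 with either hairpin. Its levels were 56.4, 54.8 and 49.9 FPKM with shlucif, 97.9, 115 and 96.6 FPKM with shArf1-1 and 116, 115 and 119 FPKM with shArf1-2. The groups did not overlap, and shArf1-1 replicate 2 stood within the range of shArf1-2 while the other 2 shArf1-1 libraries lay below it. The log2 fold change was 0.97 (95% interval 0.83 to 1.12), a 1.96-fold rise that was higher than 94.7% of the changes of all tested genes. With counts between 7442 and 18679 per library, Fasn was among the most deeply read members, after Acly and Scd2.

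Elovl6 (chromosome 3, 129532355 to 129638495, plus strand), which lengthens palmitate to stearate, was on a lower scale of expression. It stood at 6.29, 6.52 and 6.25 FPKM with shlucif, 12.6, 12.3 and 14.3 FPKM with shArf1-1 and 12.8, 12.7 and 12.4 FPKM with shArf1-2. Every Arf1-deficient value was above every shlucif value, and the log2 fold change was 0.95 (95% interval 0.81 to 1.10). Elovl5 (chromosome 9, 77917364 to 77984519, plus strand) fell from a higher level. It was at 57.0, 57.6 and 59.2 FPKM with shlucif, 45.4, 45.1 and 47.3 FPKM with shArf1-1 and 49.2, 51.2 and 50.1 FPKM with shArf1-2. Here the 3 groups were fully separate, with shArf1-1 lowest. The log2 fold change was -0.33 ± 0.05 (adjusted p = 1.37e-05 in the edgeR test). Because Elovl5 outweighed Elovl6, the summed FPKM of both elongases was 64.3 ± 1.11 with shlucif, 59.0 ± 2.29 with shArf1-1 and 62.8 ± 1.01 with shArf1-2 (SD, n = 3 each), although Elovl6 alone had risen 1.94-fold.

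Scd2 (chromosome 19, 44293674 to 44306864, plus strand) was the second most abundant of the 10. It was at 214, 231 and 220.5 FPKM with shlucif, 335, 367 and 352 FPKM with shArf1-1 and 376, 385 and 356 FPKM with shArf1-2. The Arf1-deficient range lay wholly above, and the log2 fold change was 0.64 ± 0.05 (adjusted p = 8.30e-10 in the edgeR test). Scd1, its near neighbour on chromosome 19 (44394455 to 44407879, minus strand), was the rarer by a wide margin, at 1.26, 1.53 and 1.35 FPKM with shlucif, 1.58, 3.25 and 1.91 FPKM with shArf1-1 and 2.06, 2.37 and 1.82 FPKM with shArf1-2. No Arf1-deficient value was below a shlucif value, but shArf1-1 replicate 2 stood far above the other 2 of its group. The log2 fold change of 0.58 ± 0.19 (adjusted p = 0.0115 in the edgeR test) rested on 85 to 178 counts per library. Without shlucif replicate 1 the adjusted p of the same test was 0.0569. Scd1 and Scd2 are close in sequence and reads may be shared between them, so the Scd1 level and its rise are uncertain.

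Counted by the separation of libraries after TMM scaling (edgeR's scaling of library sizes), 6 of the 10 enzymes were higher and 3 lower with no overlap between the 6 Arf1-deficient and the 3 shlucif libraries. Of all tested genes, 27.9% were higher and 30.1% lower without overlap. Acacb was the enzyme that overlapped. The margin of Acss2 was narrow, a TMM-scaled CPM (counts scaled to the library total) of 47.4 in the highest Arf1-deficient library against 47.95 in the lowest shlucif library.

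Each hairpin was also compared with shlucif on its own. With shArf1-1, 6 enzymes were higher and 4 lower, where 33.1% of all tested genes were higher and 34.4% lower. With shArf1-2, 6 were higher and 3 lower, where 30.9% were higher and 32.6% lower, and the exception was Acacb (-0.21, adjusted p = 0.149 from the edgeR test). That value hung on the shlucif libraries, at -0.07 without replicate 1 and -0.34, past the threshold, without replicate 2 (adjusted p = 0.0352 from the edgeR test). Both comparisons used the same 3 shlucif libraries. Fasn changed by 0.89 and 1.05 on the log2 scale with shArf1-1 and shArf1-2, Elovl6 by 0.99 and 0.92, Acaca by 0.67 and 0.68, Scd2 by 0.61 and 0.67, and Acly by 0.20 and 0.23. On the falling side, Elovl5 changed by -0.39 and -0.28 and Acss2 by -0.35 and -0.18. The Acss2 call with shArf1-2 (adjusted p = 0.0368 from the edgeR test) was lost when shlucif replicate 1 (-0.17), shlucif replicate 2 (-0.14), shArf1-2 replicate 2 (-0.16) or shArf1-2 replicate 3 (-0.17) was left out. It was also lost under library size scaling (-0.11) and in limma on log2(FPKM + 1) (-0.09) or log2(FPKM + 0.1) (-0.11), where the change was smaller by more than 1.5 times, and without the filter on low counts (-0.18). Under library size scaling and these limma fits the median over all tested genes was higher too, at 0.07, 0.05 and 0.07 against 0.00 with TMM. For Scd1, the change with shArf1-1 was 0.64 with all libraries and 0.29 without shArf1-1 replicate 2 (adjusted p = 0.135 from the edgeR test). With shArf1-2 the Scd1 change of 0.52 missed the threshold without shlucif replicate 1 (0.47) or 3 (0.51) and without shArf1-2 replicate 1 (0.53) or 2 (0.43), and also under GC content correction (0.48).

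**Figure D2:**
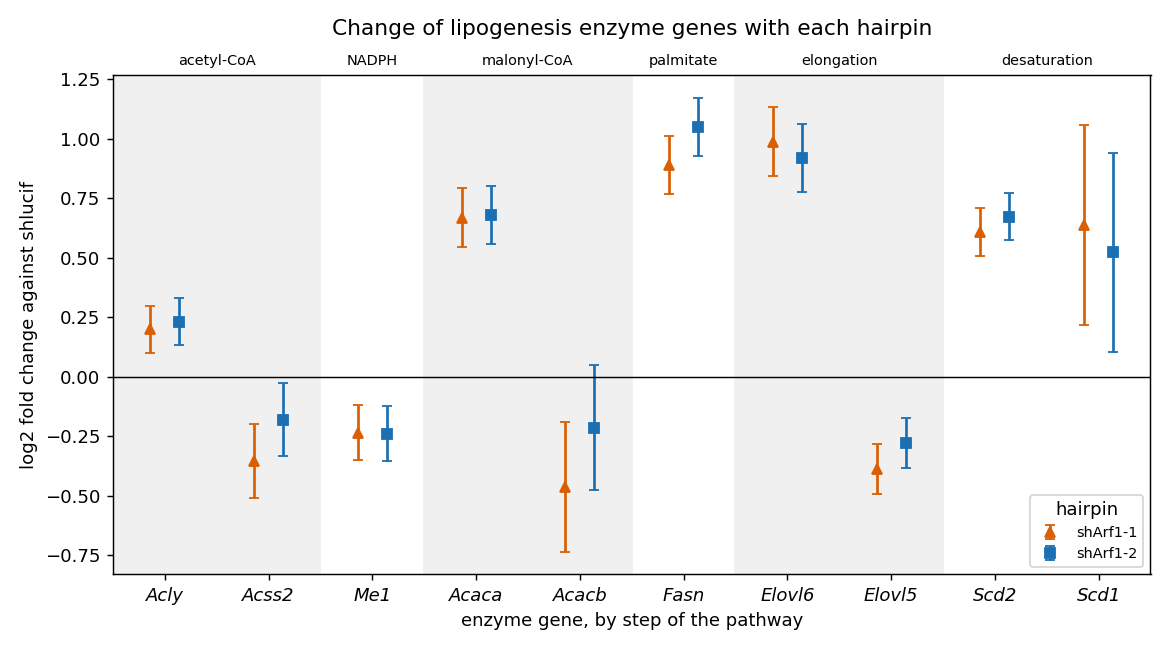
Log2 fold change of each enzyme gene against shlucif with shArf1-1 (triangles) and shArf1-2 (squares), in the order of the steps. Bars are 95% intervals from the edgeR fit of 3 groups with 3 libraries each. Fasn and Elovl6 lie between 0.89 and 1.05, Elovl5 at -0.39 and -0.28, and the bars of Scd1 and Acacb are the widest.

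The 2 hairpins were compared directly, since Arf1 itself was lower with shArf1-1 than with shArf1-2 (log2 difference 0.34, adjusted p = 1.16e-05 from the edgeR test). None of the 10 enzymes passed the threshold for a difference between hairpins in edgeR, where 14.4% of all tested genes did, and 3 were under an unadjusted p of 0.05. These were Fasn (0.16 higher with shArf1-2, 95% interval 0.04 to 0.28, adjusted p = 0.0671), Acss2 (0.17 higher, 95% interval 0.02 to 0.33, adjusted p = 0.136) and Elovl5 (0.11 higher, 95% interval 0.00 to 0.21, adjusted p = 0.173), all from the edgeR test. DESeq2 also called 0 of the 10. The Fasn difference depended on 1 library, being 0.25 without shArf1-1 replicate 2 (adjusted p = 0.000829 from the edgeR test). For the other 7 enzymes the 95% intervals reached from -0.52 to 0.52, widest for Scd1 and Acacb, and for Acly, Acaca, Me1 and Scd2 they stayed between -0.12 and 0.16. The macrophage markers were near 0 with both hairpins, at no more than 1.39 FPKM in sum.

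Ratios between genes of neighbouring or alternative steps put the shift within the pathway into numbers that do not depend on the scaling of the libraries. The level of each ratio depends on the gene lengths listed, but its difference between groups does not, since the lengths are the same in every library. They were tested over libraries with an exact two-sided permutation test of 6 against 3, in which 0.0238 is the smallest p possible, and adjusted over the 4 ratios. The 6 pool both Arf1 hairpins, so these p-values do not speak of each hairpin alone. Acacb to Acaca was 0.386, 0.266 and 0.355 with shlucif, 0.164, 0.165 and 0.133 with shArf1-1 and 0.196, 0.187 and 0.158 with shArf1-2. Every Arf1-deficient ratio was below every shlucif ratio, with a log2 difference of -0.998 (exact permutation p = 0.0238, adjusted 0.0317). Without a single library that difference ran from -1.16 to -0.89, and the log2 fold change of Acacb alone from -0.45 to -0.19. The rise of Acaca is part of this ratio, so the ratio is no separate evidence for a fall of Acacb.

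Elovl6 to Elovl5 was 0.110, 0.113 and 0.106 with shlucif, 0.278, 0.272 and 0.302 with shArf1-1 and 0.261, 0.248 and 0.247 with shArf1-2. This was the largest of the 4 shifts, with a log2 difference of 1.28 (exact permutation p = 0.0238, adjusted 0.0317) and no overlap. Elovl6 rose and Elovl5 fell without overlap, so this separation follows from those 2 changes and is no separate evidence. Fasn to Acaca, the synthase against the enzyme that supplies its malonyl-CoA, was 11.5, 10.9 and 11.2 with shlucif, 13.03, 14.1 and 11.99 with shArf1-1 and 14.9, 14.1 and 14.4 with shArf1-2. Both genes had risen, and Fasn had risen more, by a log2 difference of 0.30 (exact permutation p = 0.0238, adjusted 0.0317). Scd1 to Scd2 stayed between 0.00473 and 0.00886 over all 9 libraries, the groups overlapped, and the log2 difference was -0.09 (exact permutation p = 0.667). Scd2 had 16150 to 30107 counts per library and Scd1 85 to 178. Whether Scd1 rose apart from reads shared with Scd2 was not tested.

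**Figure D3:**
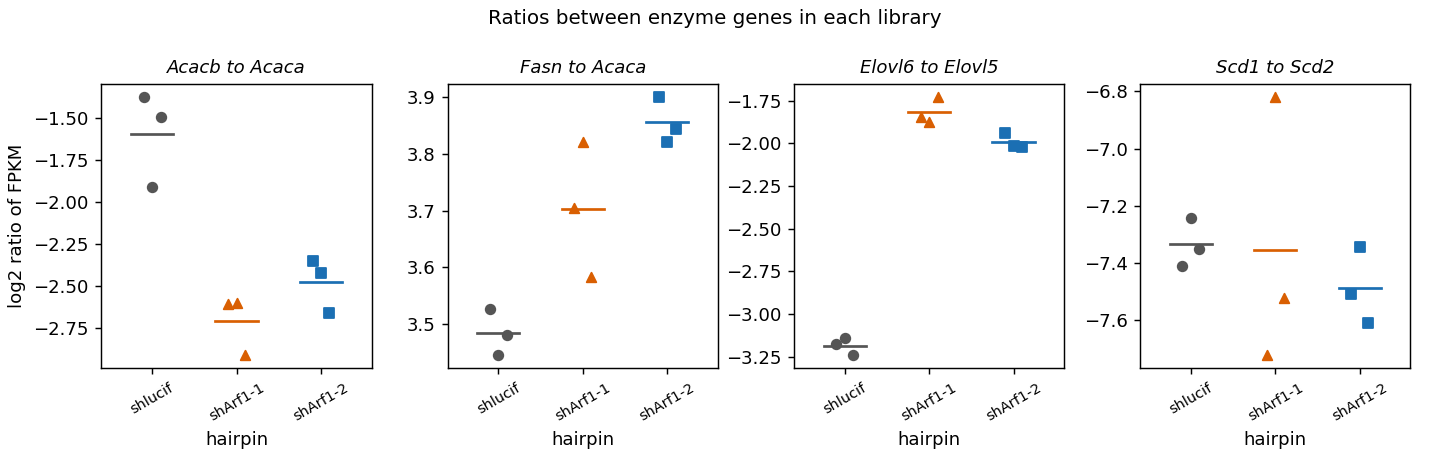
Log2 ratio of FPKM between pairs of enzyme genes in each library, with circles for shlucif, triangles for shArf1-1, squares for shArf1-2 and bars for the mean of 3 libraries. The vertical axes differ between panels. The shlucif libraries are separate from all Arf1-deficient libraries in the first 3 panels (differences of -0.998, 0.30 and 1.28) and overlap with them in the last.

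The order of levels within the pathway changed with these shifts. By FPKM the order with shlucif was Acly, Scd2, Elovl5, Fasn, Me1, Elovl6, Acss2, Acaca, Acacb and Scd1, in which Acss2 and Acaca (means 4.93 and 4.80 FPKM) and Acacb and Scd1 (means 1.61 and 1.38 FPKM) overlapped in range. With both Arf1 hairpins Fasn stood above Elovl5, Acaca above Acss2 and Scd1 above Acacb, with no overlap between neighbours in the order. Fasn supplied 7.57% of the summed FPKM of the 10 genes with shlucif, 10.96% with shArf1-1 and 11.7% with shArf1-2. Scd2 supplied 31.3%, 37.3% and 37.4%, and Acly 45.2%, 40.6% and 39.8%. The summed FPKM itself was 709 ± 13.6, 943 ± 35.6 and 996 ± 11.7 (SD, n = 3 each). With scaling to library totals, as in FPKM, the median log2 fold change of all tested genes was 0.05 with shArf1-1 and 0.07 with shArf1-2. Comparisons between genes depend on the gene length behind the FPKM. The table listed 10163 bases for Acss2, where the longest annotated coding transcript has 2931, and 17074 for Acaca, where it has 9513. On the scale of the longest coding transcript, an alternative chosen after seeing the data, Acss2 stood above Acaca and Elovl6 with shlucif (17.1, 8.62 and 6.87), and the same 3 genes stood at 13.9, 14.2 and 14.1 with shArf1-1 and at 15.8, 14.5 and 13.6 with shArf1-2. On that scale Acaca was therefore not above Acss2 with shArf1-2. The passing of Elovl5 by Fasn was kept on that scale, 73.3 to 58.5 with shlucif and 58.2 to 113 with shArf1-1 and 63.5 to 127 with shArf1-2.

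The genes around these enzymes moved in both directions. Of 55 other genes of the pathway in 6 lists, 47 had enough counts to be tested, of which 14 were higher, 15 lower and 18 not past the threshold, with a median log2 fold change of -0.01. These shares were close to those of all tested genes given above. The genes too rare to test included Mlxipl, which encodes the carbohydrate-responsive factor ChREBP, with at most 2 counts, and Thrsp with at most 1.

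Among 8 genes of citrate and NADPH supply, 3 were higher and 2 lower, where 31.6% and 32.9% of all tested genes were. Slc25a1, the carrier that exports citrate from mitochondria, fell from 64.1 ± 3.21 FPKM to 49.7 ± 1.44 and 56.4 ± 0.893 (SD, n = 3 each), a log2 fold change of -0.34. Me2, the mitochondrial malic enzyme, rose by 0.45 and Pgd, the second NADPH-producing dehydrogenase of the pentose phosphate pathway, by 0.40 on the log2 scale, while Me1 had fallen. G6pdx, the other such dehydrogenase of that pathway, was looked up after its values had been seen. It was lower, at 39.4 to 41.8 FPKM in Arf1-deficient libraries against 42.3 to 47.8 FPKM with shlucif. Of 6 modifiers and regulators of the carboxylase and synthase, 3 were higher and 1 lower. Hlcs, which attaches biotin to carboxylases, rose by 0.83 on the log2 scale. The AMP-activated kinase, which phosphorylates and restrains both carboxylases, showed opposite movements of its catalytic subunits. Prkaa1 rose by 0.32 on the log2 scale, and Prkaa2 had 101 to 121 counts in the shlucif libraries and 0 counts in all 6 Arf1-deficient libraries, which is at least 36.8-fold lower with 3 counts per library as the floor. Prkaa1 was the more abundant, at 16.9 against 1.03 FPKM with shlucif.

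In the elongation cycle, 2 of 9 tested genes were higher and 3 lower, where 31.6% and 32.9% of all tested genes were. The dehydratase genes Hacd3 and Hacd1 rose by 0.61 and 0.52 on the log2 scale, and the elongase gene Elovl7 changed by -0.60. Of 8 other desaturases and electron carriers, 4 were higher and 3 lower. Scd3 rose by 0.80 from 0.938 FPKM, a level at which reads shared with Scd2 may count. Of the electron carriers in this list, Cyb5r3, the cytochrome b5 reductase, changed by -0.79 and Cyb5b by 0.67 on the log2 scale. Cyb5a, looked up after its values had been seen, had overlapping ranges. It was at 2.96 to 4.02 FPKM with shlucif and at 2.63 to 3.19 FPKM in Arf1-deficient libraries. Fads2 and Fads1, the desaturases of polyunsaturated chains that act before and after Elovl5, were looked up after their values had been seen. Fads2 rose by 0.62 and Fads1 changed by -0.27 on the log2 scale, both past the threshold of the edgeR test.

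Of 10 tested transcription factors of lipogenesis and membrane anchors, 6 were lower and 1 higher in Arf1-deficient cells, where 32.9% and 31.6% of all tested genes were, with a median log2 fold change of -0.22. With shArf1-1 alone the counts were the same, and with shArf1-2 alone 4 were lower, 0 higher and 6 not past the threshold. Nr1h2, which encodes a liver X receptor, changed by -0.63, Insig2, which retains SREBP in the endoplasmic reticulum, by -0.51, and Srebf2, whose product drives cholesterol synthesis genes, by -0.35. Srebf1 had a mean of 83.7 ± 2.67 FPKM with shlucif, 95.8 ± 7.57 with shArf1-1 and 95.1 ± 0.960 with shArf1-2 (SD, n = 3 each). Its log2 fold change was 0.13 (adjusted p = 0.0424 from the edgeR test), and with shArf1-2 alone 0.11 (adjusted p = 0.0712). RNA levels say nothing of the cleavage that activates SREBP1. Of 6 tested genes of mitochondrial fatty acid synthesis, a separate pathway that uses its own synthase subunits, 1 was higher and none lower. That gene was Ndufab1, the mitochondrial acyl carrier protein (0.40, adjusted p = 0.0168 from the edgeR test).

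**Figure D4:**
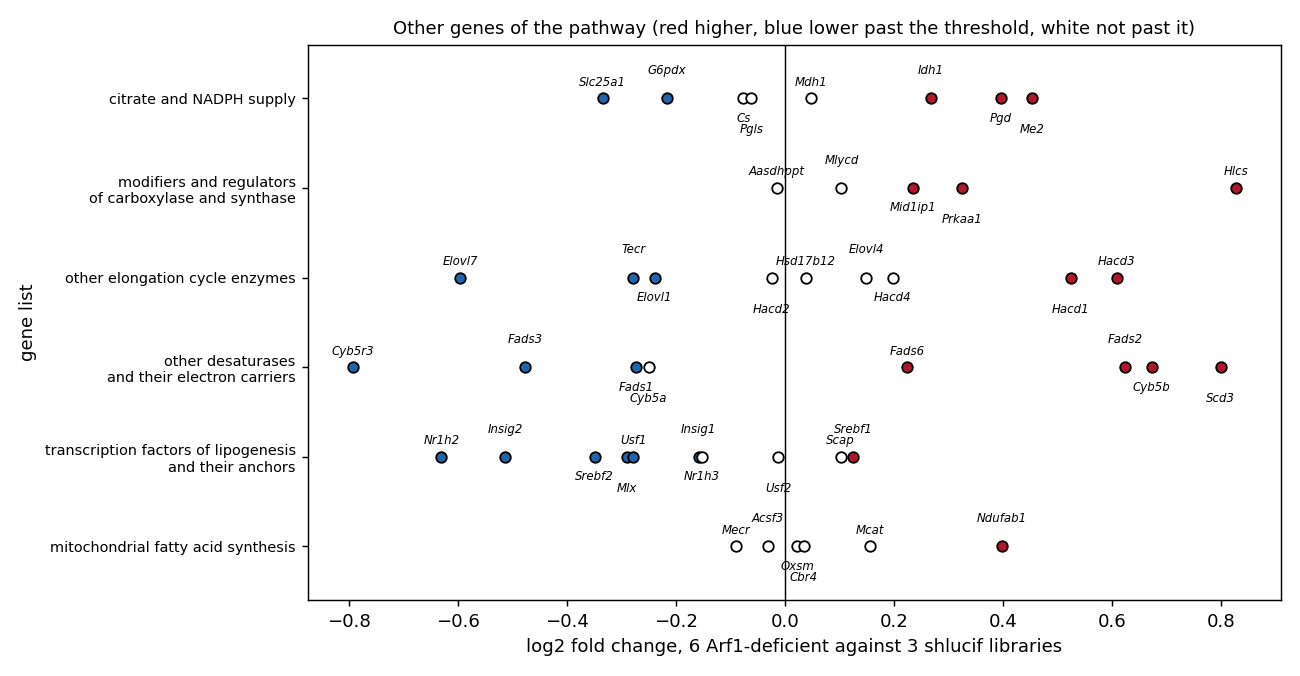
Log2 fold change of the other tested genes of the pathway between 6 Arf1-deficient and 3 shlucif libraries, 1 row per list and 1 point per gene. Red points are higher and blue points lower past the threshold, and white points are not past it. The points reach from -0.79 (Cyb5r3) to 0.83 (Hlcs), and Prkaa2, at 0 counts in all Arf1-deficient libraries, is not drawn.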

How the data were processed

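RNA-seq of 9 N2a libraries was analysed. Per the labels, poly(A) RNA was captured with oligo(dT), broken into fragments and copied from random primers. The authors deposited for each gene a read count, not normalized, and an FPKM value, which was recomputed from the count, listed length and library total within 0.1% for 100% of values. The aligner, the counting tool and the use of strand are not given in the sources used here. The submitters' processing notes name mm10, but of 21795 identifiers in GENCODE M21 (GRCm38) only 514 had the same start in the table, so gene positions were taken from GENCODE by identifier and promoter windows from RefSeq (GRCm38.p6). Columns that carry the number 2 directly after Arf were taken as shArf1-2, and 8 rows without a gene identifier were dropped.

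Counts were tested in R 4.3.3 with edgeR 4.0.16 (filterByExpr, TMM, robust glmQLFit, glmQLFTest) in a fit of 6 Arf1-deficient against 3 shlucif libraries and a fit of 3 groups. P-values were adjusted by the Benjamini-Hochberg method over 12448 genes, with 0.05 as the limit. Totals of 11182479 to 15594615 counts set the precision. The floor for lower bounds on a fold was 3 counts per library and covers counting error only. The code was tested on simulated data.

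The members and gene lists were chosen with earlier results of these data known. Named genes were the 10 enzymes, Arf1, Srebf1, the 3 genes with the largest change past the threshold in each other list and the 3 most abundant markers of each marker list. Others are named as chosen after their values were seen, or as members at 0 or too rare to test. Hsd17b8 was not analysed here. Alternatives were DESeq2 1.42.0, scaling by upper quartile or library size, no filter, at least 10 counts in every library, limma 3.58.1 on log2 FPKM with a pseudocount of 0.1 or 1, a replicate block, corrections for gene length and GC content, and leaving out each library.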

Additional observations from a re-analysis of the deposited data

Results flagged for a closer look

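The log2 change of Arf1 differed between the hairpins by 0.34 (shArf1-2 minus shArf1-1), by the edgeR test of that difference (adjusted p = 1.16e-05). Its mean was 128 FPKM with shArf1-1 and 165 FPKM with shArf1-2, against 324 with shlucif. Slc25a1, the citrate carrier, also differed, by 0.17 (95% interval from the same fit above 0, adjusted p = 0.0482), with a fall of 0.42 on the log2 scale under shArf1-1 and a smaller one of 0.25 under shArf1-2.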

How the results depend on the processing

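The directions of the 10 enzymes against shlucif did not turn under any of the 22 alternatives run for each comparison, and the calls of Acly, Me1, Acaca, Fasn, Elovl6, Elovl5 and Scd2 in Arf1-deficient cells held in all of them. The number of enzymes called higher in Arf1-deficient cells was 5 to 6. The number called lower was 2 under limma with either pseudocount, where Acss2 and Acacb missed the threshold, and 3 to 4 when single libraries were left out. Over all tested genes limma called 8126 (pseudocount 1) and 8145 (0.1), of which 55.3% and 55.6% were higher. In the main fit 8027 were called, of which 49% were higher. Acacb also missed it under library size scaling and GC content correction, and with shArf1-2 alone it passed it under gene length correction with the replicate block (-0.29). Between the hairpins, the number called higher with shArf1-2 was 1 under library size scaling, upper quartile scaling and no filter (Fasn), 2 under GC content correction with or without the replicate block (Acss2 and Elovl5), and 0 to 1 without single libraries. Of all 12448 tested genes, 1798 were called in either direction in the main fit. The number was 1728 and 1736 under the 2 scalings, and 2324 and 2573 under GC content correction without and with the block. It was 1941 of 16766 with no filter. No pairing by replicate number was seen, as the deviations of same-numbered libraries had correlations of -0.08 to 0.09 in 9 pairs. Those of differently numbered libraries ran from -0.19 to 0.19, so this check is coarse and cannot exclude a pairing. With the replicate block 1 enzyme, Fasn (0.16, adjusted p = 0.0496 from edgeR), was called between the hairpins, where 1809 of all tested genes were. Differences close to 0 changed sign. That of Me1 was 0.0148 under library size scaling, 0.0146 under upper quartile scaling, 0.0162 and 0.0167 under limma, 0.0271 under GC content correction and 0.0269 with the block added, 0.00093 in a fit of only the 6 libraries compared and -0.0334 to 0.0203 without single libraries, that of Acaca -0.0217 to 0.0381 and that of Scd1 -0.31 to 0.23 without single libraries. The differences of the 3 separated log2 ratios ran without single libraries from 0.27 to 0.33 (Fasn to Acaca), -1.16 to -0.89 (Acacb to Acaca) and 1.25 to 1.31 (Elovl6 to Elovl5). Without a shlucif library their adjusted exact permutation p was 0.0952, since 6 against 2 cannot go below 0.0714. Of the 10 enzymes, Acacb (145 to 251 counts per library) and Scd1 (85 to 178) had the fewest counts.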
